A study of Mus musculus with 89 samples.

Results

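The nuclear genes that code for the mitochondrial respiratory chain and the ATP synthase are described here in mouse lung after CuO nanomaterials. The members were chosen by symbol: every gene on the array whose name starts with Ndufa, Ndufb, Ndufc, Ndufs, Ndufv, Uqcr or Atp5, or with Cox4 to Cox8 followed by a letter, pseudogenes left out. Of 111 symbols that match, 19 were pseudogenes and 4 (Cox5b, Ndufb1, Ndufb4b and Ndufb4c) had no probe mapped here, so 88 of the 22911 genes measured were members. By prefix they comprised 38 genes of complex I, 8 of complex III, 17 of complex IV and 17 of complex V, and 8 assembly factors of complex I (the Ndufaf genes), which the prefix takes in although they are not subunits. The prefix also places Ndufa4, which is now regarded as a subunit of complex IV, and its homologue Ndufa4l2 with complex I, and both are counted there. Their probes lay well above background in all 89 samples for 85 members, Ndufaf8 in 77 samples, Cox7b2 in 9 and Cox8c in none, so for Cox7b2 and Cox8c no change is given.

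Lung tissue came from female BALB/c mice, 6 to 8 weeks old, all of which were sensitized to ovalbumin (OVA) with Alum. They were then challenged with PBS or with OVA by oropharyngeal aspiration on 4 consecutive days, without or with core CuO, its carboxylated form (CuO COOH), its methylaminated form (CuO NH3) or its PEGylated form (CuO PEG) at 2.5, 10 or 40 μg/mouse per administration. The treatment text of the labels gives these doses in mg, while the description of each sample and the study's methods give μg, which is used here. The lungs were lavaged, and tissue was taken 24 h after the last exposure. Each of the 89 samples was a pool of 2 RNA samples, so p-values measure the spread between pools and not between single mice. The design text gives 8 mice in a group, fewer than the pools of the PBS and OVA controls would take with a separate mouse for each RNA sample. Whether control pools share mice or come from more than 1 set of mice is not given in the sources used here. The PBS-challenged controls (PBS) had 7 samples and the OVA-challenged controls (OVA) 8, CuO NH3 and CuO PEG at 10 μg/mouse without OVA had 4 each, and the other groups had 3. Groups are named by material, dose and challenge, for example CuO 40 + OVA.

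Complexes I, III and IV pass electrons from NADH to oxygen and pump protons across the inner mitochondrial membrane, and complex V, the ATP synthase, uses that proton gradient to make ATP. Complex IV, cytochrome c oxidase, holds copper in its active centre, and several of its small subunits exist as separate genes for most tissues and for heart and skeletal muscle. Some subunits of each of these complexes are coded by the mitochondrial genome, and 0 of its genes were mapped here. Lung is bulk tissue, so fewer cells of a type and less RNA per cell cannot be told apart in any value below.

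Levels below are log2 intensities of quantile-normalized signals with the effects of dye, slide and position on the slide removed. Fold changes are on the log2 scale and come from 1 linear model of all 26 groups (limma) with dye and array as terms, so a fold change can differ from the gap between levels. A gene passed at an adjusted p under 0.05 (Benjamini-Hochberg over all 22911 genes), and it was called where the absolute log2 fold change was also above 0.58. The samples lay on 46 arrays of 6 slides, with a median intensity of 62 to 203 and 46.7% to 68.8% of spots well above background. Slides 1 to 3 held the CuO and CuO COOH groups beside 3 PBS and 4 OVA samples, and slides 4 to 6 the CuO NH3 and CuO PEG groups beside 4 of each. All comparisons with PBS share those control samples, as do all comparisons with OVA.

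The promoters of 72 of the 88 members were matched by symbol to RefSeq windows (GRCm38.p6) of 250 bases before the start of transcription, 77 windows in all. 5 windows are shown, from the member with the largest rise, from a ubiquitous subunit of complex IV with matches to the NRF1 motif, and from the ubiquitous and the muscle forms of subunits that are compared below. Each runs 5′ to 3′ on the strand of its gene, and capitals mark matches on either strand to the motifs of NRF1 (GCGCANGCG), ETS factors (CCGGAAG), YY1 (AANATGGCG), MEF2, Sp1 (GGGCGG) and the E-box (CANNTG). The windows are chr7:122101849-122102098 (minus strand) for Ndufab1, chr5:115348959-115349208 (minus) for Cox6a1, chr19:7217617-7217866 (minus) for Cox8a, chr7:140900447-140900696 (minus) for Cox8b and chr7:30183921-30184170 (plus) for Cox7a1.
Ndufab1: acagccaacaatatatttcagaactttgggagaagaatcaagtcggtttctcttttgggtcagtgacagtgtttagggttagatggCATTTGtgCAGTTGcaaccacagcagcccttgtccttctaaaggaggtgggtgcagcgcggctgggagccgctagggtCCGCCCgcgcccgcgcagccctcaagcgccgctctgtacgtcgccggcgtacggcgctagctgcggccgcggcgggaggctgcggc
Cox6a1: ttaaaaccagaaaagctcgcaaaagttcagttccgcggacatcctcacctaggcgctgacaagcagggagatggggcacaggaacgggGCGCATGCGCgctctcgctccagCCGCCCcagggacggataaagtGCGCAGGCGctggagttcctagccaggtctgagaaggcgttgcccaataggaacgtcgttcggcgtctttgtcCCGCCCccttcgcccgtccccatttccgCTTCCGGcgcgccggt
Cox8a: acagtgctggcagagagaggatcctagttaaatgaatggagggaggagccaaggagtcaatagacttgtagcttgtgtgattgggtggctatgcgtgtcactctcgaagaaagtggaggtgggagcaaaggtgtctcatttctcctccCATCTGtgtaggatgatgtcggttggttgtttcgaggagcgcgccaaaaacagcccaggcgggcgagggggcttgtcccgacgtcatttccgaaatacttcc
Cox8b: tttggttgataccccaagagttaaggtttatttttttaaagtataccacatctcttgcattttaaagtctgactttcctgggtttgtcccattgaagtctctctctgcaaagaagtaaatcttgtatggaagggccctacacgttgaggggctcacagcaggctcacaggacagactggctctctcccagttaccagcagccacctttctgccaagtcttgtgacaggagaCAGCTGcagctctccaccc
Cox7a1: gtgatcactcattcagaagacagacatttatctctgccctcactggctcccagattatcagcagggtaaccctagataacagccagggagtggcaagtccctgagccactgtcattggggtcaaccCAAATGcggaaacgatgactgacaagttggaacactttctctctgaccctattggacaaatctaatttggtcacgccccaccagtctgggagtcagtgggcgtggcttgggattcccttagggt

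NRF1 and the ETS factor GABP are regulators known for their sites before respiratory chain genes, while MEF2 and E-box factors are known from muscle genes. The Cox6a1 window held 3 NRF1 matches, of which those at 162 to 154 and 161 to 153 bases before the start overlap, and 1 ETS match at 16 to 10 bases. The Ndufab1 window held an Sp1 match and 2 E-box matches, and the Cox8a, Cox8b and Cox7a1 windows 1 E-box match each. Over the 77 windows of members, 18.2% held the NRF1 motif, against 5.16% of all 32851 windows, and 16.9% the ETS motif, against 6.91%. Shares for the other motifs were 3.9% against 1.12% for YY1, 39% against 32.7% for Sp1, 42.9% against 33.8% for CCAAT (not in capitals), 10.4% against 12.4% for TATAAA and 63.6% against 66.2% for the E-box. The MEF2 motif was in 0 windows of members and in 2.92% of all windows. Motifs overlap each other in places, and a match describes the letters of a window only.

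In PBS-challenged mice, CuO, CuO COOH and CuO NH3 at 40 μg/mouse each gave both rises and falls among the members. After CuO 40, 14 members were higher than in PBS (15.9% of 88, against 9.54% of all genes) and 4 were lower (4.55% against 7.34%). Both thresholds were met by 5 rises and 3 falls, 9.09% of members against 14.1% of all genes. After CuO COOH 40, 6 were higher (6.82% against 7.09%) and 6 lower (6.82% against 5.36%), of which 4 and 6 were called (11.4% against 10.3%). After CuO NH3 40, 23 were higher (26.1% against 13.4%) and 8 lower (9.09% against 12%), of which 5 and 3 were called (9.09% against 13.2%). After CuO PEG 40, limma passed 0 of 88 members, 8 were at an unadjusted p under 0.05, and 1.97% of all genes passed higher, 0.594% lower and 2.22% at both thresholds. The median log2 fold change of the members was 0.08 after CuO, 0.04 after CuO COOH, 0.08 after CuO NH3 and 0.05 after CuO PEG, and that of all genes lay between -0.01 and 0.01.

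These counts depended on single arrays and on the batch terms. In the fit with the array as a term, leaving out 1 pool also removes what the other pool on its array adds. The share of all genes was not counted in any refit that left out 1 sample. In those refits a loss over all genes cannot be told from one among the members. For CuO 40, the 18 passing members became 0 without its replicate 2 and 5 without PBS replicate 3. For CuO COOH 40, the 12 became 4 without its replicate 1 or without PBS replicate 1. For CuO NH3 40 the 31 became 10 without its replicate 1 or without PBS replicate 5, which share an array. For CuO PEG 40, 1 member passed without PBS replicate 6 and 2 without PBS replicate 1. With dye, slide and position as terms in place of the array, 45, 39, 46 and 9 of 88 members passed for CuO, CuO COOH, CuO NH3 and CuO PEG, and 36.4%, 29.6%, 38.3% and 12.5% of all genes did. With controls of the same slides only, 18, 12, 27 and 0 members passed, with 17.3%, 13.4%, 22.5% and 0.493% of all genes.

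**Figure D1:**
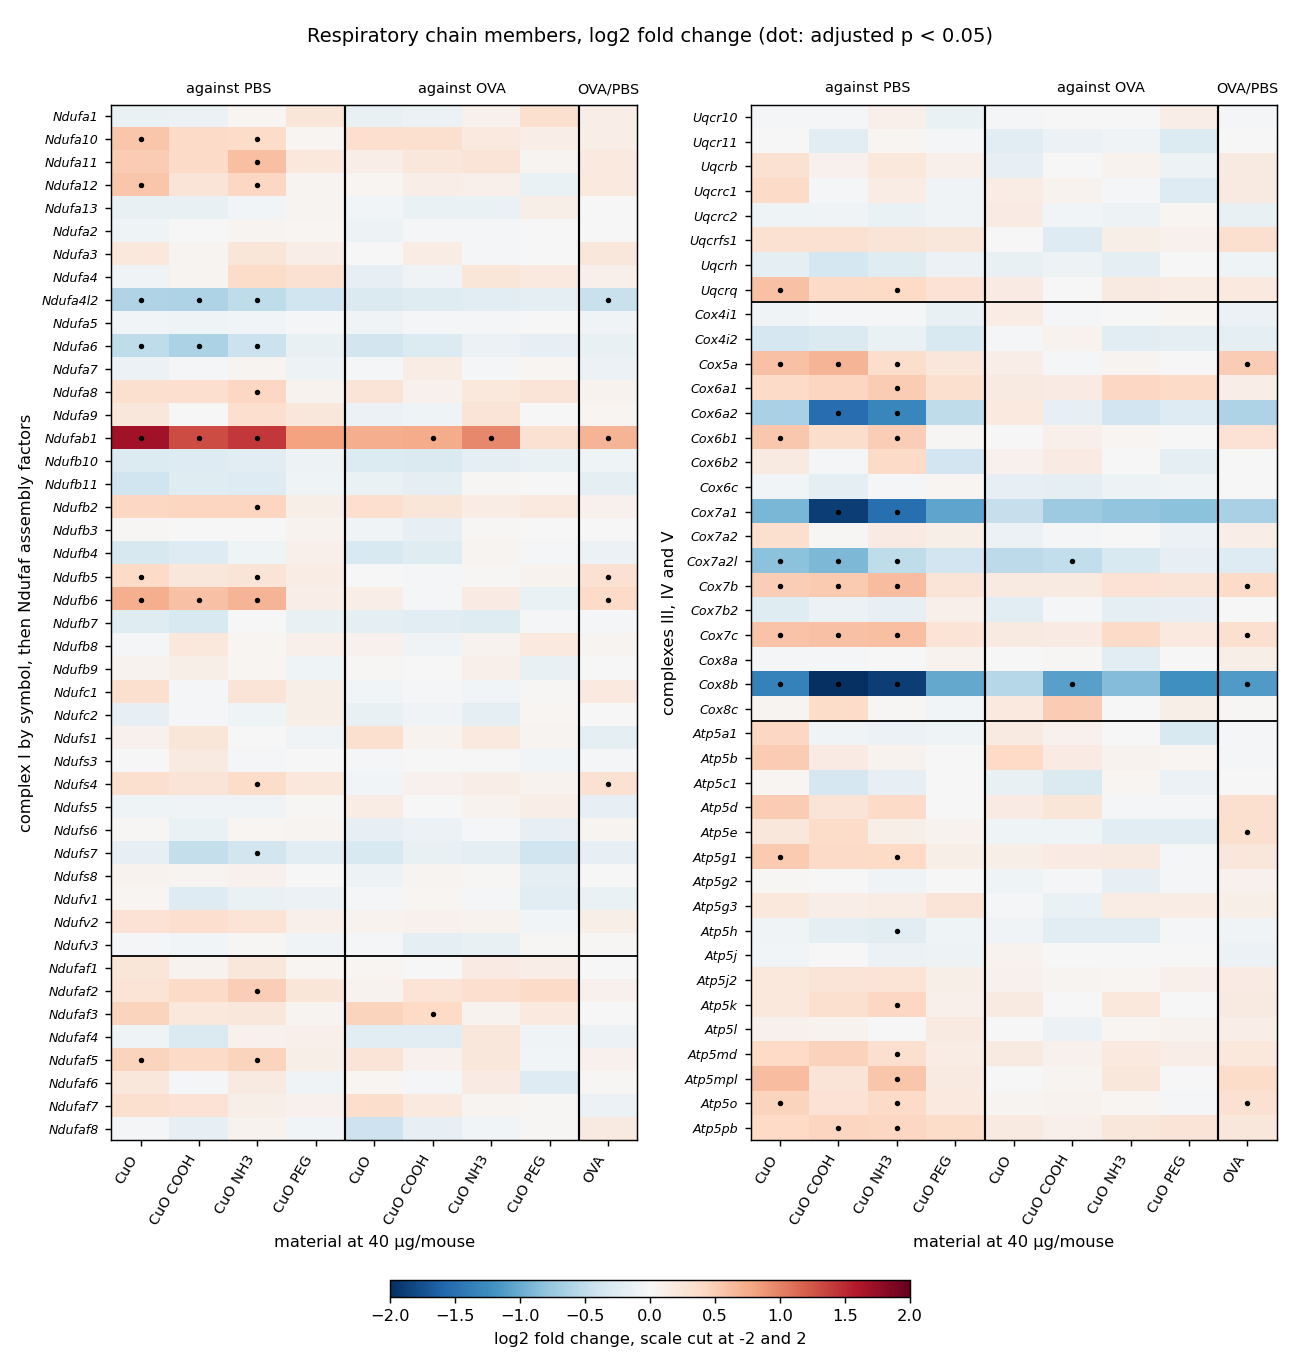
Log2 fold changes (colour, the scale ends at -2 and 2) of the members (rows, by complex, 1 member not shown) at 40 μg/mouse against PBS, against OVA, and of OVA against PBS (columns), with a dot where the limma adjusted p is under 0.05. Ndufab1 rose and Cox8b fell furthest, most rows lay near 0, and the columns of CuO PEG held 0 dots.

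Ndufab1 had the largest rise among the members after CuO, CuO COOH and CuO NH3. It codes for the mitochondrial acyl carrier protein, a subunit of complex I that also serves mitochondrial fatty acid synthesis and the maturation of iron-sulfur clusters. Its log2 level was 7.29, 7.50 and 7.64 (lowest, median and highest) in the 7 PBS samples. It was 8.64, 8.89 and 9.09 in CuO 40, 8.74, 8.82 and 9.01 in CuO COOH 40, 8.65, 8.72 and 8.95 in CuO NH3 40, and 8.09, 8.18 and 8.26 in CuO PEG 40. Every sample of the 4 materials lay above every PBS sample, and the CuO PEG samples lay below those of the other materials. The log2 fold change was 1.68 ± 0.28 (SE, limma adjusted p = 0.000182) for CuO, 1.31 ± 0.27 (adjusted p = 0.00217) for CuO COOH and 1.41 ± 0.20 (adjusted p = 1.14e-05) for CuO NH3. For CuO PEG it was 0.80, which did not pass with the array as a term and passed with slide and position as terms (0.70, limma adjusted p = 5.3e-05).

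Ndufb6, an accessory subunit in the membrane arm of complex I, rose after the same materials. Its level was 10.99, 11.11 and 11.22 in PBS, 11.41, 11.68 and 11.69 in CuO 40, 11.64, 11.66 and 11.73 in CuO COOH 40, and 11.54, 11.76 and 11.96 in CuO NH3 40, with no overlap with PBS. The log2 fold changes of Ndufb6 were 0.73 ± 0.17, 0.59 ± 0.17 and 0.69 ± 0.12 (SE), and 0.14 after CuO PEG, which did not pass. Among the other rises in complex I after CuO were Ndufa10 (0.55), Ndufa12 (0.55) and Ndufb5 (0.38), all accessory subunits. After CuO NH3, Ndufa11 (0.60), Ndufa12 (0.42), Ndufb2 (0.42), Ndufa8 (0.41), Ndufs4 (0.36), Ndufa10 (0.36) and Ndufb5 (0.26) rose as well.

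Other genes counted with complex I fell. Ndufa6, an accessory subunit of the LYR family that binds the acyl carrier protein, had levels of 13.69, 13.77 and 13.86 in PBS, 13.32, 13.34 and 13.34 in CuO 40, 13.32, 13.35 and 13.37 in CuO COOH 40 and 13.22, 13.22 and 13.40 in CuO NH3 40. All exposed samples lay below PBS, and the log2 fold changes of Ndufa6 were -0.51 ± 0.17, -0.64 ± 0.17 and -0.43 ± 0.12 (SE). Ndufa4l2, a homologue of Ndufa4 known as a target of the hypoxia-inducible factor, fell by 0.60 ± 0.16, 0.61 ± 0.16 and 0.51 ± 0.12 on the log2 scale. Levels of Ndufa4l2 were 10.62, 10.74 and 10.82 in PBS and at most 10.44 in the samples of these 3 materials, while Ndufa4, which stands for most tissues, had folds of -0.07, 0.06 and 0.36 that did not pass. Pdgfrb, a pericyte marker, fell by 0.98 after CuO and by 0.40 after CuO NH3, and its fold after CuO COOH was -0.38 and did not pass. Its list of 6 smooth muscle and pericyte markers had 2 higher and 1 lower after CuO, 0 after CuO COOH and 2 of each after CuO NH3. The mean level of that list was 11.23 to 11.36 in PBS and 11.07 to 11.44 over these materials, and its part in the Ndufa4l2 result was not tested. Ndufs7, a core subunit with an iron-sulfur cluster, fell after CuO NH3 (-0.37, limma adjusted p = 0.0292).

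Ndufv1, which binds NADH, and Ndufs1, the iron-sulfur protein next to it, did not pass in any comparison at 40 μg/mouse. Ndufs1 had log2 fold changes of 0.08, 0.25 and 0.01 after CuO, CuO COOH and CuO NH3, and Ndufv1 of 0.04, -0.25 and -0.13. Ndufa9, an accessory subunit, had 0.22 after CuO and 0.34 after CuO NH3, which did not pass. In all, 6 of the 38 genes counted with complex I rose (15.8%, against 9.54% of all genes) and 2 fell (5.26% against 7.34%) after CuO. After CuO COOH, 2 rose and 2 fell (5.26% each, against 7.09% and 5.36%), and after CuO NH3, 9 rose (23.7% against 13.4%) and 3 fell (7.89% against 12%). Ndufa4l2 was 1 of the falls each time. The medians were 0.02, 0.01 and 0.04. Of the 8 assembly factors, Ndufaf5 rose after CuO (0.45) and CuO NH3 (0.44), Ndufaf2 rose after CuO NH3 (0.50), and none passed lower or after CuO COOH.

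**Figure D2:**
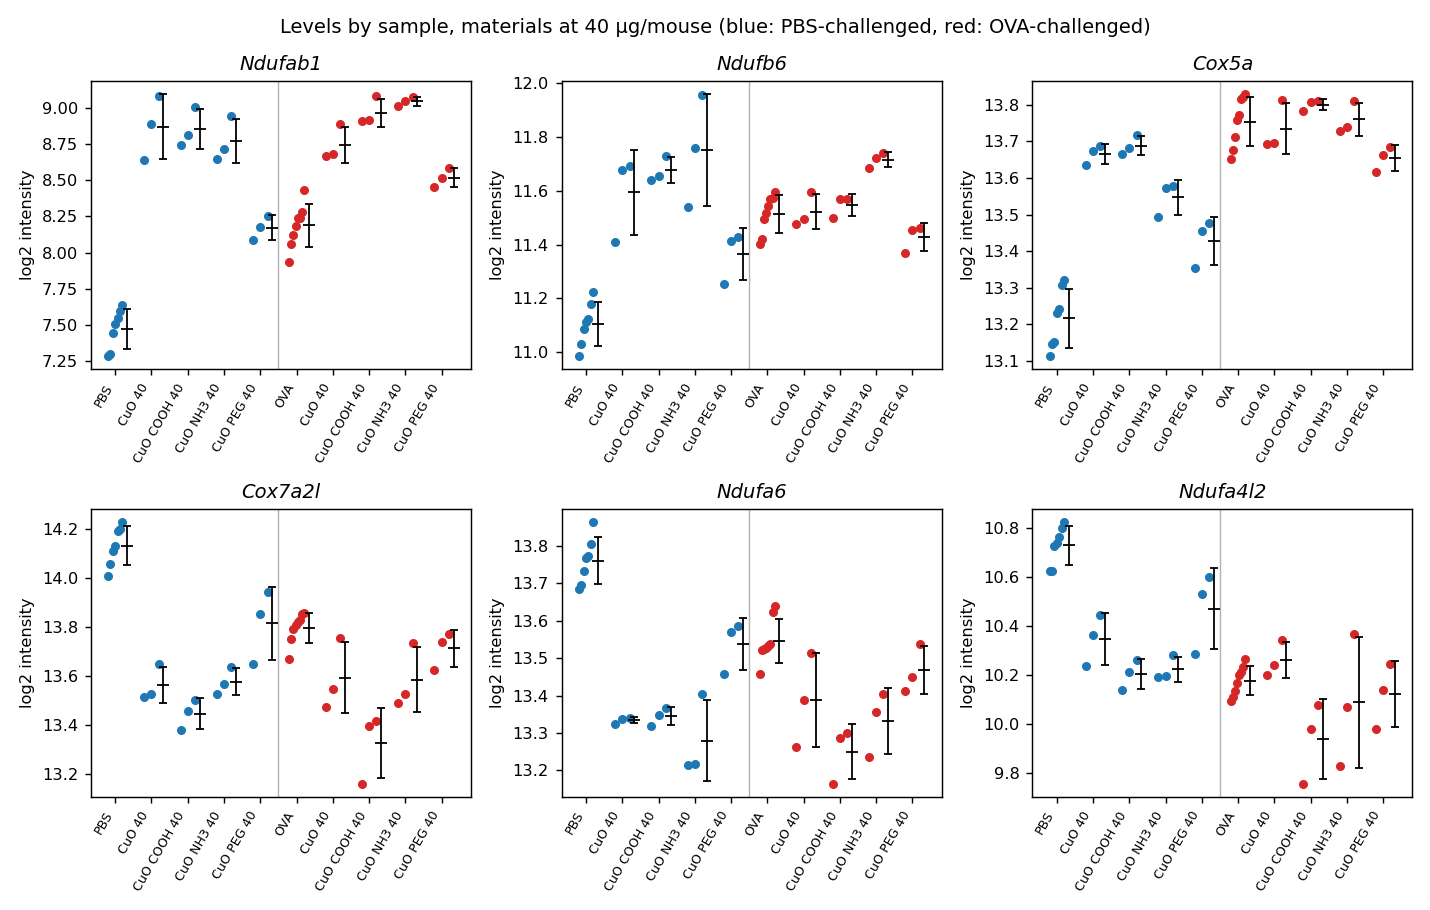
Log2 intensity (vertical axis) of 6 members in each PBS-challenged (blue) and OVA-challenged (red) sample at 40 μg/mouse, with the mean and SD beside each group. For Ndufab1, Ndufb6 and Cox5a the PBS samples are the lowest in each panel, and for Cox7a2l, Ndufa6 and Ndufa4l2 they are the highest.

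Complex III, which passes electrons from ubiquinol to cytochrome c, held 1 rise among its 8 members after CuO and after CuO NH3, and 0 after CuO COOH. Of all genes, 9.54%, 13.4% and 7.09% rose. Uqcrq, a small subunit, had levels of 13.79, 13.92 and 14.05 in PBS, 14.16, 14.19 and 14.34 in CuO 40 and 14.09, 14.41 and 14.42 in CuO NH3 40. It rose by 0.59 ± 0.20 after CuO (limma adjusted p = 0.0445) and by 0.39 ± 0.14 after CuO NH3 (adjusted p = 0.0433), and its fold of 0.38 after CuO COOH did not pass. Without CuO 40 replicate 2, the Uqcrq fold after CuO was -0.13 and did not pass. The core protein Uqcrc1 had folds of 0.38, -0.02 and 0.15 and the iron-sulfur protein Uqcrfs1 of 0.30, 0.30 and 0.25, none of which passed.

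Complex IV held both rises and falls. Cox5a, a subunit on the matrix side, rose. Its level was 13.11, 13.23 and 13.32 in PBS, 13.63, 13.67 and 13.69 in CuO 40, 13.66, 13.68 and 13.72 in CuO COOH 40, 13.49, 13.57 and 13.58 in CuO NH3 40, and 13.35, 13.45 and 13.48 in CuO PEG 40, each above all PBS samples. The log2 fold changes of Cox5a were 0.59 ± 0.12, 0.67 ± 0.12 and 0.36 ± 0.09 (SE), and 0.22 ± 0.10 after CuO PEG, which did not pass. Cox7c and Cox7b, small subunits of the membrane part, rose by 0.57, 0.58 and 0.60 and by 0.50, 0.52 and 0.62. For Cox7c the samples of these 3 materials lay above all PBS samples, whose highest was 11.80. For Cox7b the highest PBS sample, at 12.62, overlapped each group. Cox6b1 rose after CuO (0.54) and CuO NH3 (0.50), with 0.36 after CuO COOH that did not pass. Cox6a1 rose after CuO NH3 (0.51, limma adjusted p = 0.0107), but with loess normalization its fold was -0.19 and did not pass.

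Cox7a2l, which is known to join complexes III and IV in supercomplexes, fell. Its level was 14.01, 14.13 and 14.23 in PBS, 13.52, 13.53 and 13.65 in CuO 40, 13.38, 13.46 and 13.51 in CuO COOH 40, 13.53, 13.57 and 13.64 in CuO NH3 40 and 13.65, 13.85 and 13.94 in CuO PEG 40. No exposed sample reached the lowest PBS sample. The log2 fold changes of Cox7a2l were -0.82 ± 0.17, -0.90 ± 0.16 and -0.51 ± 0.12 (SE, limma adjusted p = 0.00118, 0.000489 and 0.00227), and -0.38 after CuO PEG, which did not pass. Cox7a2, the form of the same subunit family for most tissues, had folds of 0.32, 0.02 and 0.16, and Cox4i1, a large nuclear subunit of the complex, of -0.07, -0.03 and -0.03, none of which passed. Cox4i2, the lung form of Cox4, had folds of -0.33, -0.29 and -0.14 that did not pass either.

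After CuO COOH and CuO NH3, the 3 largest falls among the members were those of Cox8b, Cox7a1 and Cox6a2, forms of complex IV subunits known from heart and skeletal muscle. Cox8b had levels of 8.97, 9.73 and 10.19 in PBS, 7.80, 7.87 and 8.43 in CuO 40, 8.01, 8.01 and 8.09 in CuO COOH 40, 7.77, 7.90 and 8.11 in CuO NH3 40 and 8.43, 8.69 and 9.06 in CuO PEG 40. The groups of CuO, CuO COOH and CuO NH3 lay below all PBS samples, and the CuO PEG group overlapped them. The log2 fold changes of Cox8b were -1.36 ± 0.43, -2.10 ± 0.42, -1.88 ± 0.31 and -1.02 ± 0.36 (SE), of which the last did not pass. Cox7a1 had levels of 9.86, 10.84 and 11.43 in PBS, 9.11, 9.32 and 9.72 in CuO 40, 9.39, 9.43 and 9.58 in CuO COOH 40 and 9.40, 9.47 and 9.56 in CuO NH3 40. It fell by 1.88 ± 0.40 after CuO COOH and by 1.51 ± 0.29 after CuO NH3, and its fold of -0.91 after CuO did not pass. Cox6a2 fell by 1.52 ± 0.40 and by 1.31 ± 0.29 after the same materials, with -0.65 after CuO that did not pass. With slide and position as terms, Cox7a1 (-1.41) and Cox6a2 (-1.07) also passed after CuO, and Cox8b (-0.97) and Cox7a1 (-0.80) after CuO PEG. Cox8a, the form of Cox8b for most tissues, had folds of -0.02, -0.03 and -0.01 that did not pass.

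Cardiac muscle markers moved with these subunits. The 12 markers (among them Myh6, Myl7, Nppa, Tnnt2 and Tnni3) lay well above background in 80 to 89 of the 89 samples, and their mean log2 level was 8.83, 10.21 and 10.93 in PBS, 8.85 to 9.57 after CuO 40, 8.84 to 9.06 after CuO COOH 40, 8.40 to 8.74 after CuO NH3 40, 8.63 to 9.72 after CuO PEG 40 and 8.82 to 10.00 in OVA. In the fit with the array as a term, 0, 1, 8 and 0 of the 12 fell after CuO, CuO COOH, CuO NH3 and CuO PEG and none rose. With slide and position as terms, 6, 6, 8 and 5 fell. Of 9 skeletal muscle markers, the myosins Myh1, Myh2 and Myh4 were well above background in 0, 3 and 2 samples. Ckm was so in 65, Acta1 in 85, Mylpf in 87, and Atp2a1, Tnni2 and Tnnt3 in 89. Among brown fat markers, Ucp1 was so in 1 sample, Elovl3 in 4, Dio2 in 83, and Cidea and Ppara in 89. Of 4 white fat markers, 0, 1, 2 and 0 fell, with a mean level of 7.14 to 8.25 in PBS and 6.51 to 6.72 after CuO NH3.

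The mean of the cardiac markers was also used as a covariate, an alternative chosen after seeing the data. Cox8b then had folds of -1.51 after CuO (limma adjusted p = 0.000155), -1.31 after CuO COOH (0.00203) and -0.94 after CuO NH3 (0.00369), and all passed. Cox7a1 had -1.14 after CuO COOH and -0.63 after CuO NH3, which passed. Cox6a2 had -0.79 (limma adjusted p = 0.0663) and -0.46 (0.176) and no longer passed. Of the 77 changes of members tested again with this covariate, 58 passed and 19 did not, with the direction kept in all. Those that did not pass were Cox7b, Ndufb5 and Uqcrq after CuO, Atp5pb, Cox6a2 and Ndufb6 after CuO COOH, and Ndufs4 in OVA against PBS. After CuO NH3 they were Atp5h, Atp5k, Atp5md, Cox6a1, Cox6a2, Ndufa6, Ndufa8, Ndufaf2, Ndufb2, Ndufb5, Ndufs4 and Ndufs7. The part of muscle or fat in these results was not tested beyond these values.

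**Figure D3:**
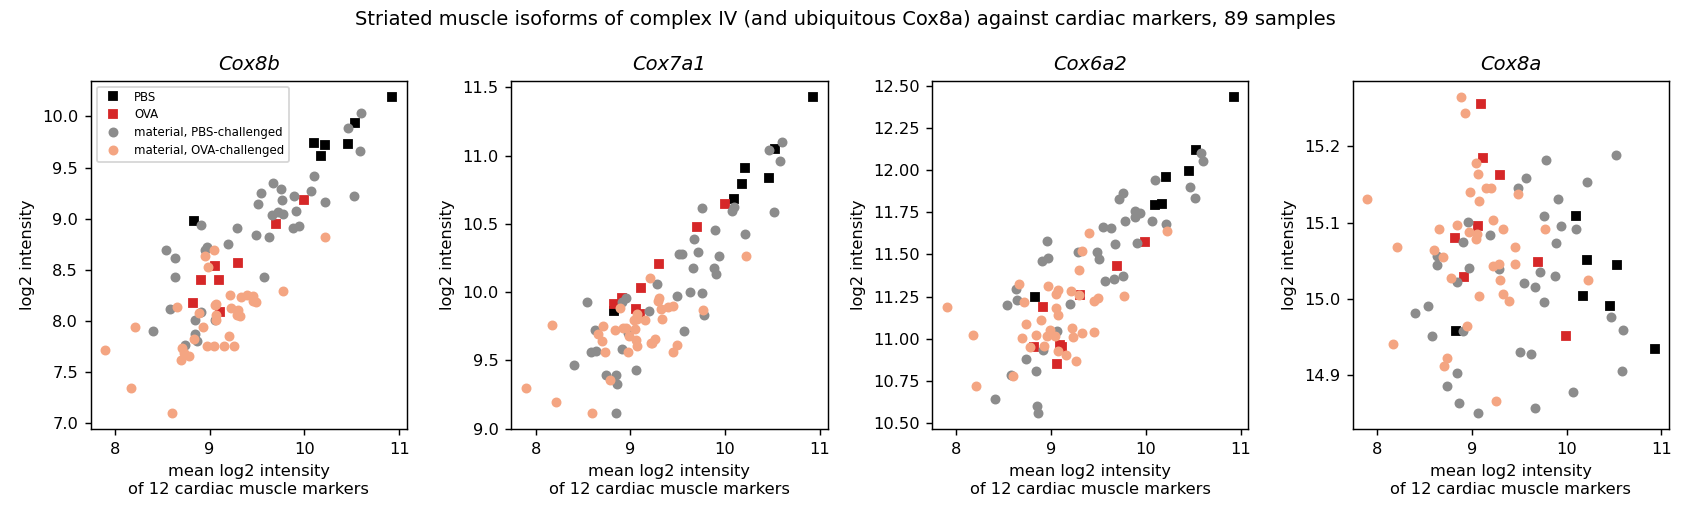
Log2 intensity of Cox8b, Cox7a1, Cox6a2 and Cox8a (vertical axes) against the mean log2 intensity of 12 cardiac muscle markers (horizontal axes) in 89 samples, PBS in black, OVA in red, and exposed samples in grey (PBS-challenged) and orange (OVA-challenged). The 3 muscle forms are high where the markers are high, in most PBS samples, while Cox8a lies between 14.85 and 15.26.

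Of the 17 members of complex V, the ATP synthase, 2 rose after CuO, 1 after CuO COOH and 6 after CuO NH3. Of all genes, 9.54%, 7.09% and 13.4% rose. The medians of complex V were 0.23, 0.26 and 0.14, and 1 member fell after CuO NH3, against 12% of all genes. Atp5g1, which codes for the c subunit of the rotor, had levels of 12.03, 12.21 and 12.27 in PBS and 12.52, 12.55 and 12.67 in CuO 40, and rose by 0.53 ± 0.13 after CuO and 0.39 ± 0.09 after CuO NH3. Atp5o, in the peripheral stalk that holds the catalytic head, rose by 0.44 ± 0.12 and 0.38 ± 0.08. Its probes differed, with 0.23 and 0.65 after CuO. Atp5pb, another stalk subunit, rose by 0.42 after CuO COOH and 0.41 after CuO NH3, and its folds of 0.39 after CuO and 0.37 after CuO PEG did not pass. Atp5h fell after CuO NH3 (-0.23), from 14.02, 14.08 and 14.12 in PBS to 13.85, 13.92 and 13.94. The catalytic head had folds that did not pass for Atp5a1 (0.41, -0.07 and -0.12) and Atp5b (0.51, 0.16 and 0.07), and after CuO the 2 probes of Atp5a1 differed (0.91 and -0.09).

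Challenge with OVA alone passed 11 of 88 members. Against PBS, 9 of 88 members were higher in OVA (10.2%, against 6.4% of all genes) and 2 lower (2.27% against 5.69%), and 1 rise and 1 fall were called (2.27% against 5.23%). Ndufab1 rose by 0.68 ± 0.17 (limma adjusted p = 0.00845), with levels of 7.93, 8.21 and 8.43 in OVA, all above PBS. Cox5a rose by 0.51 ± 0.07 (adjusted p = 4.01e-05), with 13.65, 13.76 and 13.83, also above PBS. Cox7b (0.39), Ndufb6 (0.38), Cox7c (0.33), Atp5e (0.32), Ndufs4 (0.31), Atp5o (0.30) and Ndufb5 (0.30) rose too. Cox8b fell by 1.14 ± 0.26 and Ndufa4l2 by 0.45 ± 0.10, and with the cardiac markers as a covariate the Cox8b fold was -0.70 and passed. The count of 11 became 4 without PBS replicate 2 or OVA replicate 3, which share an array, and 5 without PBS replicate 3. It was 4 on slides 1 to 3 alone (9.08% of all genes) and 1 on slides 4 to 6 alone (1.44%), splits added after seeing the data, and 41 with slide and position as terms (35.8%).

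In OVA-challenged mice the materials at 40 μg/mouse passed 0 to 4 members against OVA controls in the fit with the array as a term. CuO 40 + OVA passed 0 (9 at an unadjusted p under 0.05, with 1.09% of all genes higher, 0.594% lower and 1.64% called), 1 without OVA replicate 2 or 4, and 4 with slide and position as terms (12% of all genes). CuO COOH 40 + OVA passed 2 higher (3.98% of all genes) and 2 lower (3.08%), with 1 of each called (3.84%). It passed 0 without its replicate 1 or OVA replicate 1, which share an array. With slide and position as terms, 13 passed for CuO COOH 40 + OVA (18.8% of all genes) and 17 for CuO NH3 40 + OVA (22%). CuO NH3 40 + OVA passed 1 higher and 0 lower, with 3.68%, 2.57% and 3.95% of all genes, 0 without its replicate 1 or 2 and 2 without its replicate 3 or OVA replicate 8. CuO PEG 40 + OVA passed 0 (7 at an unadjusted p under 0.05, with 0.41%, 0.192% and 0.567% of all genes) and also 0 with slide and position as terms (3% of all genes). Ndufab1 was the member that passed for both CuO COOH (0.74 ± 0.20) and CuO NH3 (0.97 ± 0.22), with levels of 8.91, 8.92 and 9.08 and of 9.01, 9.05 and 9.08, all above the OVA samples. Ndufaf3, an assembly factor of complex I, rose by 0.40 after CuO COOH, and Cox7a2l and Cox8b fell by 0.49 ± 0.12 and 1.08 ± 0.30, where Cox8b overlapped with OVA.

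The difference between the exposure effects in OVA-challenged and PBS-challenged mice was tested itself. For CuO COOH, 1 member passed, against 1.07% of all genes. Cox5a had a difference of -0.69 ± 0.14 (limma adjusted p = 0.014), from 0.67 without OVA to -0.02 with OVA. Levels of Cox5a were 13.78, 13.81 and 13.81 in CuO COOH 40 + OVA against 13.65 to 13.83 in OVA, so the exposed samples lay within the range of OVA. This call was lost without replicate 1 of CuO COOH 40, CuO COOH 40 + OVA, PBS or OVA, and with controls of the same slides only. Replicate 1 of CuO COOH 40 + OVA shares an array with replicate 1 of OVA. For CuO, CuO NH3 and CuO PEG, limma passed 0 members (10, 9 and 0 at an unadjusted p under 0.05), against 1.13%, 1.58% and 0% of all genes, and 1 passed for CuO without CuO 40 replicate 1 or CuO 40 + OVA replicate 2. With slide and position as terms, 19, 7, 13 and 0 passed for CuO, CuO COOH, CuO NH3 and CuO PEG, against 14.1%, 4.51%, 8.06% and 1.28% of all genes. The Ndufab1 differences did not pass in the fit with the array as a term, and their 95% intervals were -1.60 to -0.30 for CuO, -1.24 to 0.11 for CuO COOH and -1.03 to 0.13 for CuO NH3. With slide and position as terms, the Ndufab1 difference passed for CuO (-0.84, limma adjusted p = 0.000319) and CuO COOH (-0.60, 0.0273), and did not for CuO NH3 (-0.44, 0.0986) or CuO PEG (-0.37, 0.508).

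**Figure D4:**
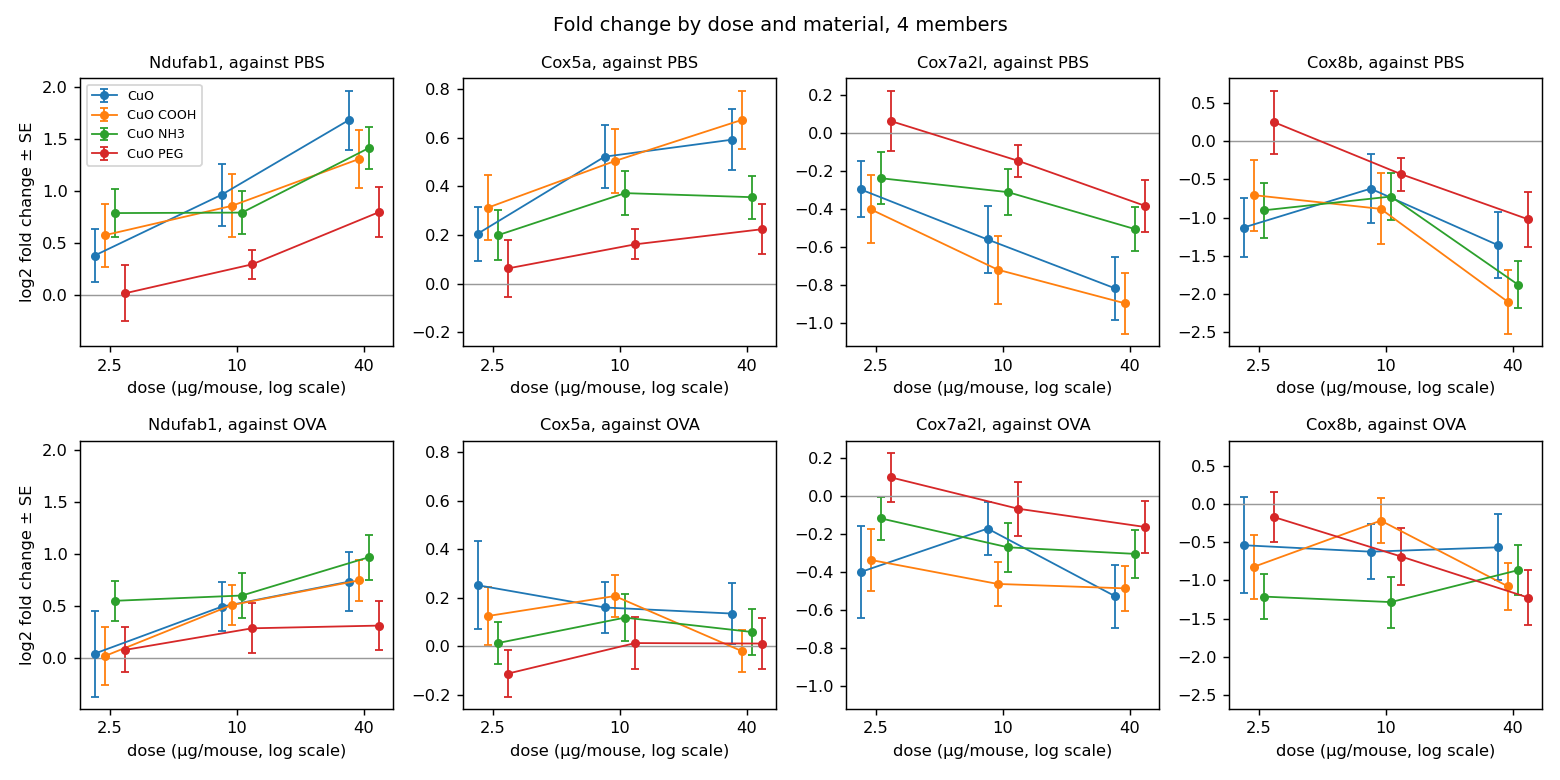
Log2 fold change ± SE (vertical axes) of Ndufab1, Cox5a, Cox7a2l and Cox8b by dose (horizontal axes, log scale) and material (colours), against PBS (top) and against OVA (bottom). Against PBS, Ndufab1 at 40 μg/mouse is at 1.68 for CuO and 0.80 for CuO PEG, and the Cox5a folds against OVA lie near 0.

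At 10 μg/mouse against PBS, Cox5a passed for 3 materials, with 0.52 ± 0.13 after CuO, 0.50 ± 0.13 after CuO COOH and 0.37 ± 0.09 after CuO NH3. It was the 1 member that passed after CuO 10 (3.74% of all genes), and Cox7a2l (-0.72) passed with it after CuO COOH 10 (3.71%). After CuO NH3 10, 6 members rose (5.08% of all genes): Ndufab1 (0.79), Cox7b (0.42), Cox5a, Atp5pb (0.36), Ndufb5 (0.32) and Atp5o (0.30). In OVA-challenged mice Cox8b fell by 1.21 ± 0.30 after CuO NH3 2.5 (1.17% of all genes) and by 1.28 ± 0.33 after CuO NH3 10 (3.51%). The other 11 of the 16 comparisons at 2.5 and 10 μg/mouse passed 0 members. The share of all genes there was 0.947% for CuO 2.5, 0.358% for CuO COOH 2.5, 1.05% for CuO NH3 2.5, 0% for CuO PEG 2.5 and 0.864% for CuO PEG 10 against PBS. Against OVA it was 0.284% for CuO 10, 0.0349% for CuO COOH 2.5, 0.873% for CuO COOH 10, and 0% for CuO PEG 2.5 and CuO PEG 10. Replicates 1 and 3 of CuO 2.5 + OVA and replicate 2 of CuO COOH 2.5 lay alone on their arrays. Such a sample adds nothing to a fold change in the fit with the array as a term. CuO 2.5 + OVA therefore rested on its replicate 2 only, and its lack of passing members does not show an absence of change. CuO COOH 2.5 rested on its replicates 1 and 3. The 11 passing results over these 16 comparisons became 69 with slide and position as terms. The share of all genes was not counted there. A move of all genes therefore cannot be told from one of the members. The 11 results became 4 to 15 when 1 sample was left out. They were 4 without PBS replicate 3 or CuO COOH 10 + OVA replicate 3, which share an array, and 4 without PBS replicate 5.

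The 3 modified materials were also set against unmodified CuO, dose by dose and within each challenge, 18 comparisons in all, with dye, slide and position as terms. Doses were equal masses of whole material, and the study measured less copper in the coated forms, least in CuO PEG. Coating and amount of copper therefore cannot be told apart in these comparisons. In PBS-challenged mice, CuO PEG 40 differed from CuO 40 in 9 of 88 members, all lower after CuO PEG, against 12.5% of all genes. Ndufab1 was lower by -0.70 (95% interval -1.04 to -0.36, limma adjusted p = 0.00304), and all CuO PEG samples lay below the CuO samples. The others included Cox6b2 (-0.54), Atp5d (-0.40), Ndufa11 (-0.37), Cox6b1 (-0.33), Ndufa10 (-0.32), Ndufaf5 (-0.30) and Atp5g1 (-0.28). The 9 became 1 without CuO 40 replicate 2, 5 without CuO PEG 40 replicate 2, and 1 with the array as a term. The carboxyl and methylamine forms at 40 μg/mouse passed 0 members against CuO in PBS-challenged mice (0.279% and 0.135% of all genes), and CuO COOH passed 5 without CuO 40 replicate 3. For Ndufab1 their differences from CuO were -0.02 (95% interval -0.30 to 0.26) and -0.10 (-0.44 to 0.24), and for Cox8b 0.00 (-0.52 to 0.53) and -0.11 (-0.75 to 0.54). In OVA-challenged mice, CuO COOH, CuO NH3 and CuO PEG at 40 μg/mouse passed 0 members against CuO (0.524%, 0.515% and 0.458% of all genes), and the Ndufab1 differences were 0.22 (-0.08 to 0.52), 0.30 (-0.04 to 0.64) and -0.23 (-0.59 to 0.14).

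At 10 μg/mouse without OVA, CuO PEG was lower than CuO in Cox7c (-0.43) and Atp5pb (-0.26), against 1.91% of all genes. The other 11 comparisons of materials at the lower doses passed 0 members. The shares of all genes without OVA were 0.432% for CuO COOH, 0% for CuO NH3 and 3.27% for CuO PEG at 2.5 μg/mouse, and 0.0306% for CuO COOH and 0.253% for CuO NH3 at 10 μg/mouse. With OVA they were 0% for CuO COOH, 0% for CuO NH3 and 0.00436% for CuO PEG at 2.5 μg/mouse, and 0.00436%, 0% and 0% at 10 μg/mouse.

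Other genes of mitochondria and energy metabolism were counted in lists beside the members. For these lists and the cell markers further below, the shares of all genes are given here. After CuO, CuO COOH, CuO NH3 and CuO PEG at 40 μg/mouse, 9.54%, 7.09%, 13.4% and 1.97% rose and 7.34%, 5.36%, 12% and 0.594% fell. In OVA against PBS, 6.4% rose and 5.69% fell. The mitochondrial ribosome, which translates the subunits coded in mitochondria, had 78 genes, of which 26, 22 and 50 rose after CuO, CuO COOH and CuO NH3 at 40 μg/mouse, with medians of 0.40, 0.29 and 0.40, and 1 fell in each. Mrps25 rose by 1.13, 0.79 and 1.01 and Mrps18b by 0.80, 0.78 and 0.90. Of 19 genes of glycolysis, 10, 7 and 10 rose and none fell, among them Gapdh (1.54, 1.15 and 1.06), Eno1 (1.50, 1.04 and 1.12) and Ldha (1.42, 0.82 and 0.87). After CuO PEG 40 both lists had 0 genes past the threshold, with medians of 0.14 and 0.07. OVA against PBS had 12 and 7 rises and 0 falls in these lists. Among 9 outer membrane and mass markers, 4, 1 and 5 rose, and the chaperone Hspd1 rose by 1.10, 0.70 and 0.70.

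The 12 regulators of mitochondrial biogenesis had 0 genes past the threshold after the 4 materials at 40 μg/mouse against PBS. Ppargc1a, the coactivator PGC-1 alpha, had folds of -0.21, -0.17 and -0.20 after CuO, CuO COOH and CuO NH3, Nrf1 of -0.07, -0.07 and 0.01, and Tfam, which packs and transcribes mitochondrial DNA, of -0.16, -0.16 and 0.04. In OVA against PBS, Ppargc1b rose by 0.44. Of 11 genes that deliver copper to complex IV, 1, 2 and 3 rose and 0, 0 and 1 fell. Cox19, a copper chaperone factor, rose by 0.64, 0.51 and 0.80 and Cmc2 by 0.59 and 0.76 after CuO COOH and CuO NH3. The chaperones Cox17, Sco1 and Sco2 and the copper importer Slc31a1 did not pass, with Cox17 at -0.15, -0.06 and -0.06 and Slc31a1 at 0.15, 0.04 and -0.06.

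Among 24 assembly factors outside the rule, 7, 3 and 7 rose and 2, 2 and 1 fell. Coa5, needed for complex IV, rose by 0.73, 0.80 and 0.92, and Surf1, which also serves complex IV, fell by 0.62, 0.50 and 0.43. Complex II had 0 of 4 genes past the threshold, with Sdha at 0.00, 0.04 and -0.22. Cytochrome c (Cycs, 0.64) and cytochrome c1 (Cyc1, 0.61) rose after CuO. Of 15 genes of the tricarboxylic acid cycle, Idh3a rose after CuO (0.69) and CuO COOH (0.67) and no other passed. Of 13 genes of fatty acid oxidation, Cpt2 rose and Acadm fell after CuO (0.75 and -0.62) and CuO NH3 (0.43 and -0.70).

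**Figure D5:**
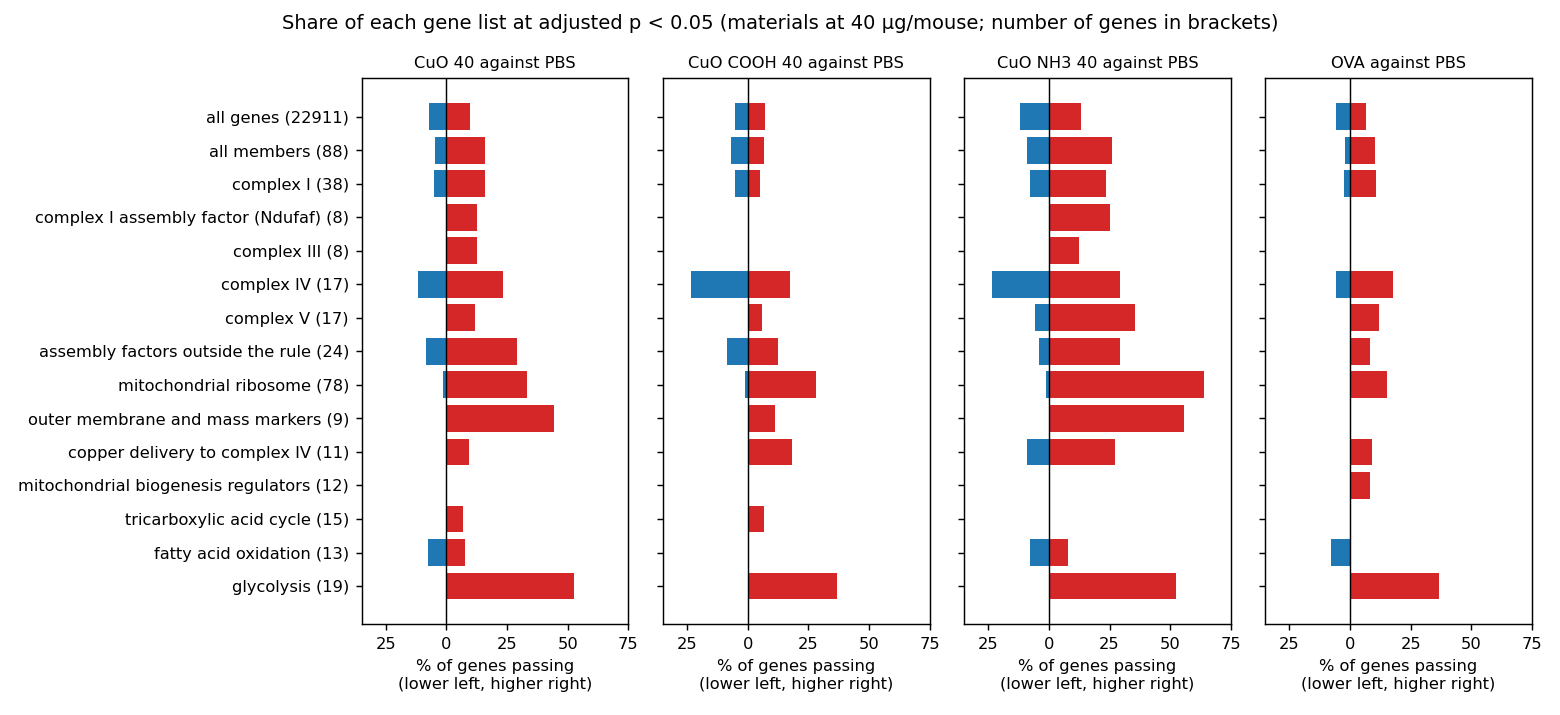
Percent of the genes in each list (rows, number of genes in brackets) that passed at an adjusted p under 0.05, higher to the right in red and lower to the left in blue, for 3 materials at 40 μg/mouse against PBS and for OVA against PBS. The mitochondrial ribosome and glycolysis have 78 and 19 genes and bars mostly to the right, while complex IV has bars on both sides.

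Markers of several cell types moved beside the members, and their part in the results was not tested. All 5 mitotic markers rose after the 4 materials at 40 μg/mouse and in OVA, from a mean log2 level of 7.12 to 7.79 in PBS to 9.79 to 10.01 after CuO, 9.67 to 9.95 after CuO COOH, 9.89 to 10.06 after CuO NH3, 8.91 to 9.03 after CuO PEG and 8.97 to 9.69 in OVA. Of 6 monocyte and macrophage markers, 4, 4, 4 and 3 rose, with levels of 9.81 to 10.19 in PBS and 10.37 to 11.35 over the 4 materials. Of 8 neutrophil markers, 5, 1, 5 and 0 rose, from 9.36 to 9.74 in PBS to 10.26 to 10.69 after CuO, 9.93 to 10.20 after CuO COOH and 10.61 to 11.03 after CuO NH3. Of 5 endothelial markers, 4, 4, 5 and 0 fell, from 12.34 to 13.02 in PBS to 11.61 to 11.91 over CuO, CuO COOH and CuO NH3. Of 4 erythroid markers, 4, 4, 4 and 0 fell, from 15.36 or more in PBS to 12.68 to 13.65 over the same 3 materials.

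Marker lists of other cells of the lung moved as well. Of 8 alveolar macrophage markers, 4, 3, 4 and 3 fell and 1 rose after each material, and their mean level went from 10.75 to 11.02 in PBS to 9.57 to 9.66 after CuO, 10.10 to 10.38 after CuO COOH, 9.96 to 10.05 after CuO NH3 and 9.95 to 10.10 after CuO PEG, below every PBS sample. Of 3 club cell markers, 1, 2, 3 and 0 fell, from 16.12 to 16.84 in PBS to 14.99 to 15.86, 14.65 to 15.69 and 14.14 to 14.51 after the first 3 materials. Of 4 T cell markers, 1, 1, 1 and 0 fell, with levels of 7.98 to 8.43 in PBS and 7.41 to 7.79 over those materials. Of 3 B cell markers, 2, 0, 2 and 0 fell, with 8.58 to 9.50 in PBS and 7.61 to 8.36 over those materials. Of 4 fibroblast markers, 2, 2, 2 and 1 rose and 1, 0, 1 and 0 fell, with 12.80 to 13.10 in PBS and 13.26 to 13.71 over those materials.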

How the data were processed

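Lung RNA of 89 pools was hybridised on 46 two-colour mouse arrays of 6 slides (array design on mm9), and each sample is 1 channel. The authors deposited scanner files of spot intensity (Agilent Feature Extraction 12.0.2.2 per the file headers), and a table of log2 values that the authors had processed. Ranks in that deposited log2 table matched the sample's own channel in 89 of 89 samples, and its values served as an alternative. It held no column that could not be mapped to a sample.

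Here, log2 median foreground intensities, with 3671 of 62976 spots left out as controls, were quantile normalized (limma 3.58.1, R 4.3.3). Spots were averaged to 56605 probes, and 32994 probes with a gene (RefSeq symbols by accession) to 22911 genes by the mean of their probes. All 26 groups were fitted with dye and array as terms, leaving 17 residual degrees of freedom. Comparisons between materials used dye, slide and position (50 degrees of freedom). No gene was filtered. 1 member is counted in the totals but its values are not reported here. Code was tested on simulated data. The number of arrays limits the precision. Python 3.11.15 and R's data.table (version 1.17.8) handled the files, and plots were drawn with matplotlib 3.10.9.

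Members, marker lists and other gene lists were chosen with earlier results of these data known. Named genes were up to 10 rises and 10 falls among passing members in each comparison at 40 μg/mouse, in OVA against PBS and in the differences between challenges, fixed core subunits and isoform pairs, and the passing genes with the largest changes of the other lists. Alternatives were normexp background correction, loess, leaving out dim probes, the deposited values, the brightest probe, other batch terms, a replicate block, controls of the same slides and leaving out each sample. The cardiac covariate and the split of OVA against PBS by slides were added after seeing the data.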

Additional observations from a re-analysis of the deposited data

Results flagged for a closer look

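Among 196 groups of 4 to 10 samples (48 members and the median over members), 11 held a sample far from the others, where chance gives about 1 in 20. The number given is the gap of that sample to its nearest neighbour divided by the range of the group. In PBS these were Atp5e (0.663, replicate 1 at 13.77 and the others at 13.94 to 14.03), Atp5g1 (0.616, replicate 6 at 12.03), Cox7b (0.576, replicate 4 at 12.62), Ndufa9 (0.588, replicate 1 at 11.33), Ndufaf2 (0.769, replicate 4 at 9.45), Ndufaf3 (0.649, replicate 4 at 9.76) and the median over the members (0.572, replicate 4 at 0.08 above the PBS mean). In CuO NH3 10 they were Atp5h (0.888, replicate 3 at 14.11) and Ndufaf2 (0.87, replicate 2 at 9.39). In CuO PEG 10 they were Ndufa4 (0.903, replicate 3 at 12.82) and Ndufb2 (0.829, replicate 4 at 11.78). The effect of CuO COOH 40 on Cox5a differed between OVA-challenged and PBS-challenged mice by -0.69 (limma adjusted p = 0.014).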

How the results depend on the processing

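Members passing were counted again under each alternative, and most counts that stayed close to those of the main fit are left out here. With the array as a random block, the counts against PBS were 41, 38, 43 and 9 for CuO 40, CuO COOH 40, CuO NH3 40 and CuO PEG 40. Of all genes, 35.4%, 33.6%, 38.2% and 12.3% passed there. Against OVA the counts were 7, 16, 19 and 4 in the order CuO, CuO COOH, CuO NH3 and CuO PEG (14.8%, 22.5%, 25.2% and 6.47%). OVA against PBS gave 30 (30.8%), and the lower doses 108. The differences between challenges of CuO, CuO COOH and CuO NH3 gave 10, 2 and 3 (9.74%, 3.17% and 5.91%). With dye, slide and position the counts were 45, 39, 46 and 9 against PBS in the order CuO, CuO COOH, CuO NH3 and CuO PEG. They were 4, 13 and 17 for CuO, CuO COOH and CuO NH3 against OVA and 41 for OVA against PBS. The differences gave 19, 7 and 13 and the lower doses 69. Loess gave 2 for CuO NH3 40 + OVA (5.05% of all genes) and 1 for the CuO difference (1.69%). The brightest probe gave 11 for CuO 40 (17% of all genes) and 6 over the lower doses. Controls of the same slides gave 2 for CuO NH3 40 + OVA (5.13% of all genes) and 0 for the CuO COOH difference (1.13%). OVA against PBS gave 4 on slides 1 to 3 (9.08% of all genes) and 1 on slides 4 to 6 (1.44%). CuO PEG 40 against CuO 40 gave 1 with dye and array as terms (2.1%). Over the lower doses the share of all genes was not counted under any alternative. The cause of these moves was not tested.

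Whether replicate numbers pair the samples was not settled. Correlations of same-numbered deviations ran from -0.27 to 0.70, and for OVA against PBS 4 of 7 samples were closest to their own number. Against PBS it was 2 of 3 for CuO 40 and CuO COOH 40, and 0 of 3 for CuO NH3 40 and CuO PEG 40. The replicate block has terms for dye and replicate number and none for slide. Replicates 1 to 3 lay on slides 4 to 6 for CuO NH3 and CuO PEG, and on slides 1 to 3 for PBS and OVA. For those 2 materials the block does not separate slide from material. With the replicate block the counts against PBS were 38, 29, 52 and 42 for CuO, CuO COOH, CuO NH3 and CuO PEG. Of all genes, 33.6%, 28.3%, 44.6% and 27.9% passed there. Against OVA the counts were 6, 8, 51 and 40 (12.9%, 15.5%, 39.4% and 29.5% of all genes). OVA against PBS gave 33 (33%), the differences 12, 2 and 4 (11.9%, 3.37% and 7.25%), and the lower doses 359 (share of all genes not counted). Against CuO the counts were 26 for CuO NH3 40 (17.9%) and 34 for CuO NH3 40 + OVA (22.1%). For CuO PEG 40 and CuO PEG 40 + OVA they were 34 (26.8%) and 23 (17.9%). Under this block Atp5o (-0.15) and Ndufa8 (-0.38) changed sign for CuO NH3 40, as did Atp5g1 (0.0045), Atp5d (0.0787) and Cox6b1 (0.15) for CuO PEG 40 against CuO 40.

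Leaving out 1 sample at a time gave 0 to 20 for CuO 40, 4 to 12 for CuO COOH 40, 10 to 33 for CuO NH3 40, 0 to 2 for CuO PEG 40, 0 to 1, 0 to 5, 0 to 2 and 0 to 0 for the same materials with OVA, 4 to 13 for OVA against PBS, 0 to 1, 0 to 1, 0 to 0 and 0 to 0 for the differences, 4 to 15 over the lower doses, and against CuO 0 to 5 for CuO COOH 40, 1 to 11 for CuO PEG 40 and 0 to 0 for the other 4. Shares of all genes were not counted when 1 sample was left out. For Uqcrq after CuO 40 the fold ran from -0.13 (without CuO 40 replicate 2, a change of sign) to 0.67. Cox6a1 changed sign for CuO NH3 40 with loess (-0.19). Passing results were then checked for direction and an adjusted p under 0.05 under every alternative except leaving out each sample. The cardiac covariate was among these alternatives. Those kept were 7 of 18 for CuO 40 and 9 of 12 for CuO COOH 40. For CuO NH3 40 they were 13 of 31, and for OVA against PBS 1 of 11. These alternatives include controls of the same slides for the materials and the splits by slides for OVA against PBS, which leave out samples. With each sample left out as well, 0, 1, 7 and 1 were kept.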
